A study of Mus musculus with 6 samples.

Results

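The 29 genes described here make cholesterol, control its synthesis through the SREBP transcription factors, or sense and move sterols through the LXR receptors and their transporters. They were chosen by symbol, as 29 of the 56980 Ensembl gene IDs of the deposited count table. The rule uses no measured value, although the genes were picked with earlier results of these data known. All 29 passed the filter on low counts. They comprise 18 enzymes of the synthesis pathway (7 of the mevalonate steps, 11 of the squalene and sterol steps), 5 SREBP regulators, 2 LXR receptors and 4 export and transport genes. Total RNA of whole pancreatic islets from 14-week-old mice was sequenced in 6 libraries. The 3 knockout libraries came from mice of genotype SSBP3F/F; MIP-CreER, and the 3 control libraries from SSBP3F/F littermates. Ssbp3 was therefore floxed in all 6; its protein is a transcriptional co-regulator that works with the LIM-domain cofactor LDB1. Only the knockout mice carried MIP-CreER, an inducible Cre recombinase driven by the mouse insulin promoter, so effects of the transgene and of the deletion cannot be told apart. Beta cells are the islet cells that use this promoter, so the deletion is aimed at them. Which cells lost Ssbp3 was not measured here. Neither the way Cre was induced nor the number of animals behind a library is stated in the labels. The p-values therefore reflect how far these 6 libraries scatter, and some of that scatter may be technical.

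Cholesterol is built from acetyl-CoA through mevalonate, isoprenoid units, squalene and lanosterol. When membranes of the endoplasmic reticulum are short of sterol, SCAP escorts the SREBP precursors to the Golgi, where proteases release the part that enters the nucleus and switches on the synthesis genes. INSIG proteins hold SCAP and the SREBPs back when sterol is plentiful. Oxysterols activate the LXR receptors, which raise transcription of the exporters ABCA1 and ABCG1. In beta cells the sterol content of the plasma membrane and of the insulin granules bears on secretion.

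Library totals ran from 14907641 to 93841878 counts in the knockout group and from 17587055 to 225428920 in the control group. Each group held 1 shallow library, knockout 1 and control 1. Levels are CPM, counts scaled to a common library total, on the library size scaled by TMM factors, and 3 counts, taken as the floor of counting, corresponded to 0.0135 to 0.194 CPM. Ssbp3 itself stood at 52.2, 58.1 and 57.1 CPM in the knockout libraries and at 65.8, 81.3 and 74.2 CPM in the control libraries. Every knockout value was below every control value, but the log2 fold change of -0.40 (SE 0.117) did not pass the test (edgeR quasi-likelihood test, Benjamini-Hochberg adjusted p = 0.0581; 0.0128 to 0.283 over the 16 alternatives). Fewer cells of a type and less RNA per cell cannot be told apart in such bulk libraries. Counts were summed over a whole gene, so Ssbp3 transcripts that lack the deleted part still count. The 9 beta cell markers summed to 141638 to 159322 CPM in knockout and 188610.3 to 243691 CPM in control libraries. Of the 9, 3 were called lower by edgeR (Mafa, Ucn3 and G6pc2). Ins1 and Ins2 lay below control without overlap but were not called (edgeR adjusted p = 0.109 and 0.234). The 10 acinar markers, from exocrine cells carried along with islets, summed to 23105 to 79394 CPM in knockout and 29699 to 60158 CPM in control libraries, and 0 were called by edgeR or reached an unadjusted p under 0.05. The 6 duct cell markers summed to 1218 to 1656 CPM in knockout and 1899 to 2418 CPM in control libraries, without overlap. Of the 6, 4 had positive log2 fold changes and 2 negative ones. Cftr was called higher (edgeR adjusted p = 0.0169), and Spp1 was at -1.08 (0.0550). The 4 delta and PP cell markers summed to 6355 to 8547 CPM in knockout and 8552 to 13973 CPM in control libraries. These sums were barely apart, at 8546.8 CPM in knockout 1 and 8551.6 CPM in control 3. Sst was called lower (edgeR adjusted p = 0.0223), and the groups overlapped for Ppy and Pyy. The 5 alpha cell markers summed to 18463 to 22647 CPM in knockout and 20749.8 to 32060 CPM in control libraries, which overlapped. When library sizes were computed without hormone and acinar genes, Srebf2 stayed at a log2 fold change of 0.56 (adjusted p = 0.0182) and Abcg1 was at 0.46 (0.0354). With the summed acinar markers as a covariate they were at 0.57 (0.00344) and 0.45 (0.0104). The part of endocrine and duct cell makeup in the values of the 29 genes was not tested.

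Genes with an adjusted p under 0.05 over all 18558 genes tested are called. Of the 29 members, 2 were called, and both rose in the knockout. They were Srebf2, the SREBP that chiefly drives cholesterol synthesis, and Abcg1, a sterol exporter. None was called lower in this fit, while edgeR with upper-quartile factors or the acinar covariate and DESeq2 called Ebp lower and limma-voom called Ebp and Pmvk lower. DESeq2 called 7 of the 29 members, beside 2094 of 18558 genes. With limma-voom it was 6 of the 29, beside 1725 of 18558 genes. Srebf2 and Abcg1 were among them in both. Without control 2, or without both shallow libraries, 0 members were called by edgeR. Over all genes these 2 fits called 519 of 19268 and 124 of 19018. In the main edgeR fit, 7.07% of all genes tested were called (3.72% higher and 3.35% lower). The 6.90% of members called in that fit is close to this background, which was not compared for the other fits. The groups did not overlap for 11 members, 37.9% of the 29, of which 7 lay above control and 4 below, whereas this held for 28.0% of all genes. An unadjusted p under 0.05 was reached by 11 members (37.9%) and by 21.6% of all genes. Of the members, 18 had a positive log2 fold change and 11 a negative one, and 49.8% of all genes had a positive one. The members' log2 fold changes ran from -0.58 to 0.70 with a median of 0.10, against a median of 0.00 over all genes. All 4 transport genes and 4 of the 5 regulators had positive values, and the synthesis enzymes had 10 positive and 8 negative; a difference between roles was not tested.

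Fold changes also went with transcript length. Over 18113 genes with a known length, Spearman's rho between log2 fold change and exon length was 0.21, a description across genes, which are not independent and share their libraries. Npc1, Abca1, Abcg1 and Srebf2 have long exon sequence (11.3, 10.4, 7.30 and 7.18 kb), and Ebp and Pmvk short (2.31 and 1.71 kb). With offsets for length and GC content the log2 fold change was 0.54 for Abca1, 0.48 for Npc1, 0.44 for Srebf2, 0.35 for Abcg1 and 0.20 for Scap, each closer to 0 than without them. Srebf2 kept its call under these offsets (edgeR adjusted p = 0.0479), Abca1 gained it (0.0260) and Abcg1 lost it (0.108). Ebp and Pmvk were then at -0.34 and -0.28, and Tm7sf2, of 4.40 kb, at -0.61.

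**Figure D1:**
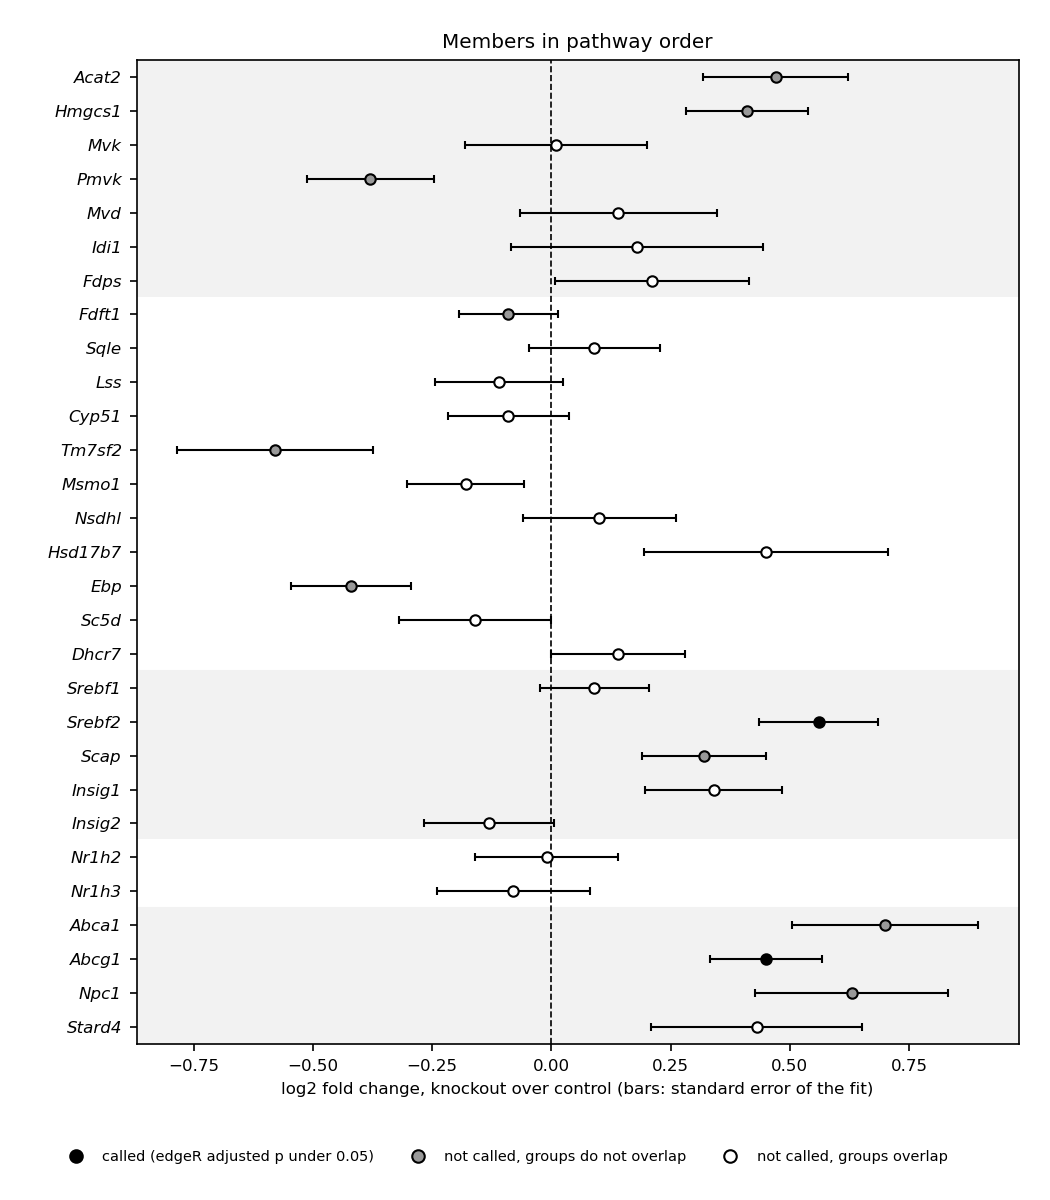
Log2 fold change of each of the 29 members, knockout over control (x axis), with the standard error of the fit as bars; genes run down the page in pathway order, shaded by role. Filled points are called (Srebf2 and Abcg1), grey points are uncalled genes whose groups did not overlap, and open points are the rest.

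Srebf2 (ENSMUSG00000022463) encodes SREBP2. Its level was 116, 112 and 129 CPM in the knockout libraries and 90.2, 69.2 and 83.3 CPM in the control libraries. Every knockout library lay above every control library. The means were 118.7 ± 8.98 CPM in knockout and 80.9 ± 10.7 CPM in control (SD, n = 3 each), a log2 fold change of 0.56 (SE 0.124), or 1.47-fold (edgeR adjusted p = 0.0188). The call was lost without control 2 (adjusted p = 0.106), without knockout 1 (0.0618) or without both shallow libraries (0.124), and the log2 fold change stayed between 0.44 and 0.66 over all 16 alternatives. Over these alternatives the adjusted p ran from 0.000965 to 0.124.

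Srebf1 encodes the SREBP1 isoforms, which chiefly drive fatty acid synthesis. It had 103, 103 and 114 CPM in knockout libraries and 90.9, 98.4 and 111 CPM in control libraries, with overlapping groups (log2 fold change 0.09, SE 0.115, edgeR adjusted p = 0.723). The ratio of Srebf2 to Srebf1 counts within a library does not depend on the scaling of that library. This ratio was 1.12, 1.08 and 1.14 in knockout libraries and 0.993, 0.703 and 0.747 in control libraries. Srebf2 thus exceeded Srebf1 in counts in every knockout library and in none of the control libraries, although counts of different genes also depend on transcript length.

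Scap, the sterol-sensing escort of the SREBPs, had 69.8, 76.4 and 74.0 CPM in knockout libraries and 49.1, 59.0 and 68.6 CPM in control libraries. The groups were apart, narrowly between knockout 1 and control 3, and Scap did not pass the test (log2 fold change 0.32, SE 0.1304, edgeR adjusted p = 0.179). Its log2 fold change was 0.20 without control 1. Insig1, the INSIG gene that SREBPs themselves switch on, had 89.9, 94.8 and 104 CPM in knockout libraries and 93.0, 61.5 and 74.8 CPM in control libraries. Control 1 lay within the knockout range, and the gene was not called (log2 fold change 0.34, SE 0.144, edgeR adjusted p = 0.193). Its log2 fold change was 0.50 without control 1 and 0.21 without control 2.

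Insig2, the second retention protein, had 32.7, 38.8 and 41.3 CPM in knockout libraries and 47.0, 40.5 and 36.8 CPM in control libraries. These groups overlapped (log2 fold change -0.13, edgeR adjusted p = 0.635). The ratio of Insig1 to Insig2 counts was 2.75, 2.45 and 2.53 in knockout libraries and 1.98, 1.52 and 2.03 in control libraries. The ratios did not overlap between the groups, although the levels of each gene did. Of the 4 ratios computed, the other two overlapped. Hmgcs1 over Sqle was 0.266, 0.2697 and 0.266 in knockout libraries and 0.272, 0.218 and 0.169 in control libraries. Abcg1 over Nr1h2 was 2.41, 1.82 and 2.66 in knockout libraries and 1.93, 1.34 and 1.8015 in control libraries.

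**Figure D2:**
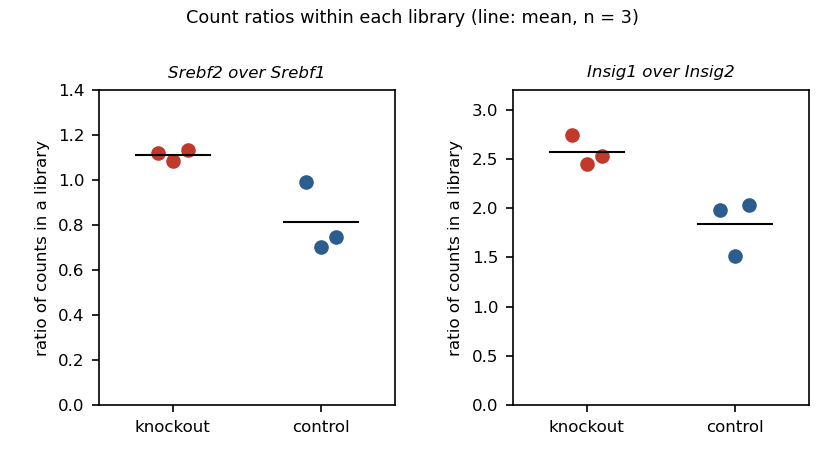
Ratio of counts within each library (y axes, no unit) for Srebf2 over Srebf1 and for Insig1 over Insig2, with 3 knockout libraries at left and 3 control libraries at right in each panel; the line is the mean. These are the 2 of 4 computed ratios that did not overlap, each higher in every knockout library than in any control library.

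Summed over the 5 regulators, the level was 411, 425 and 462 CPM in knockout libraries and 370.1, 329 and 375 CPM in control libraries. All knockout sums lay above all control sums, with means of 433 ± 26.4 and 358 ± 25.4 CPM (SD, n = 3 each) in knockout and control. The Srebf2 gene also holds the microRNA Mir33 in an intron, a repressor of sterol exporters in mouse. The count row of Mir33 had 0 counts in all 6 libraries. Whether these libraries could capture a microRNA was not tested, so the counts do not show that Mir33 was absent or unchanged.

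Promoter windows are shown for the members with the smallest p that have one, since Srebf2 was called and the others came next in the order of p. The windows are those of RefSeq on GRCm38.p6 and run from 250 bases before to 50 bases after the annotated start, 5′ to 3′ on the gene's strand. Capitals mark CCAAT on either strand, the letters bound by NF-Y, a common partner of SREBPs, and TCACNCCAC on either strand, a form of the sterol regulatory element. The counts of the deposited table rest on GRCm39, so these coordinates belong to the sequence and not to the counts. Srebf2 lies at chr15:82147019-82147318 on the plus strand, Abca1 at chr4:53159846-53160145 on the minus strand, Ebp at chrX:8193463-8193762 on the minus strand and Hmgcs1 at chr13:119690101-119690400 on the plus strand.
Srebf2: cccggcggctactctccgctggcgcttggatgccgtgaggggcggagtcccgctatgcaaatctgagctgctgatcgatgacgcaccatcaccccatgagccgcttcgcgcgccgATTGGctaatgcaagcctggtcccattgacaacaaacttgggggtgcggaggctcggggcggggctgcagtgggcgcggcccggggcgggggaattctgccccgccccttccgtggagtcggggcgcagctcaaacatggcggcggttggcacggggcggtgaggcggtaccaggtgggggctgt
Abca1: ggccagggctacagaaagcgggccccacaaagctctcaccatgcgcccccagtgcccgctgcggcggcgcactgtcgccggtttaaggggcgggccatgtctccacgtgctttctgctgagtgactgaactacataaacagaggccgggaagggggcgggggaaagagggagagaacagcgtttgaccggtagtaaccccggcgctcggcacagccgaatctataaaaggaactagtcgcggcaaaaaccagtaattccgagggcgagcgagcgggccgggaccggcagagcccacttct
Ebp: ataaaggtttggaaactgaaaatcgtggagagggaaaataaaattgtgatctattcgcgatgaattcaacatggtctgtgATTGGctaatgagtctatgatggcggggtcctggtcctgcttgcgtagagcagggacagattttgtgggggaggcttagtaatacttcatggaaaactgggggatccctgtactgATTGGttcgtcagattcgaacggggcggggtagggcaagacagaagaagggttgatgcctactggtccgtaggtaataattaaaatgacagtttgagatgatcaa
Hmgcs1: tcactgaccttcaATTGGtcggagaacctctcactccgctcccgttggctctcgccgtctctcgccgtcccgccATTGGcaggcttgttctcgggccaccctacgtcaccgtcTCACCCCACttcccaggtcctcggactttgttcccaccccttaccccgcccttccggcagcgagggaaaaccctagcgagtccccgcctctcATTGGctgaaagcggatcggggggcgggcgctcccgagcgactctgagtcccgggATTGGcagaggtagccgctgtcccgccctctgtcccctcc

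A window of 300 bases was found for 23 of the 29 members, with 32 windows in all. CCAAT stood in 18 of the 23 genes and in 59.4% of their windows, compared with 37.4% of all 32851 promoter windows of the same length. TCACNCCAC stood in 1 member, Hmgcs1, and in 1.24% of all windows. The longer consensus form of the element, which contains it, stood in 0 member windows and in 0.0913% of all windows. The DR4 form of the LXR response element, with identical AGGTCA repeats and any 4 letters between them, stood in 0 member windows and in 0.0152% of all windows. These are matches of letters, and a window without a match says only that these letters are not in it. The exact DR4 letters are rare in all windows, and forms with other repeats were not searched. A count of 0 therefore cannot show whether a member window, that of Abca1 included, holds an LXR element.

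None of the 7 enzymes of the mevalonate steps was called by edgeR with TMM factors, the filter and no covariate. Of the 7, 3 had an unadjusted p under 0.05, which 21.6% of all genes reached. The median log2 fold change of the 7 enzymes was 0.18. DESeq2 called Hmgcs1 and Acat2 higher, with adjusted p of 0.0485 and 0.0385, and limma-voom called both higher and Pmvk lower, with adjusted p of 0.0343, 0.0331 and 0.0453. In edgeR, Hmgcs1 was called without the filter on low counts (0.0451) and with the acinar covariate (0.0350), and Acat2 with length and GC offsets (0.0493). Hmgcs1, which joins acetoacetyl-CoA and acetyl-CoA to HMG-CoA, had 51.5, 49.1 and 52.3 CPM in knockout libraries and 44.5, 33.9 and 37.2 CPM in control libraries. The groups did not overlap (log2 fold change 0.41, SE 0.127, unadjusted p = 0.00708, edgeR adjusted p = 0.0749). Acat2, the cytosolic thiolase that makes acetoacetyl-CoA, had 15.6, 18.1 and 18.5 CPM in knockout libraries and 13.1, 11.8 and 12.9 CPM in control libraries. These groups did not overlap either (log2 fold change 0.47, SE 0.152, edgeR adjusted p = 0.0837). Acat2 and Idi1 have close paralogues in mouse, so reads could be split between copies.

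Pmvk, which adds the second phosphate to mevalonate, lay the other way. It had 40.0, 35.0 and 33.6 CPM in knockout libraries and 40.7, 53.1 and 47.2 CPM in control libraries, without overlap (log2 fold change -0.38, SE 0.133, edgeR adjusted p = 0.104). Idi1, which interconverts the isoprenoid units, had 24.4, 28.4 and 29.5 CPM in knockout libraries and 37.4, 18.4 and 18.1 CPM in control libraries. Control 1 was the highest of the 6 and the other control libraries the lowest. Its log2 fold change was 0.18 in all libraries (edgeR adjusted p = 0.760) and 0.59 without control 1 (0.0677). Mvk, Mvd and Fdps, the remaining kinase, the decarboxylase and the farnesyl diphosphate synthase, had overlapping groups and log2 fold changes of 0.01, 0.14 and 0.21.

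None of the 11 enzymes of the squalene and sterol steps was called by edgeR with TMM factors and no covariate. Of the 11, 2 had an unadjusted p under 0.05, which 21.6% of all genes reached. Ebp was called lower by DESeq2 (adjusted p = 0.0408), by limma-voom (0.0400), and by edgeR with upper-quartile factors (0.0451) or the acinar covariate (0.0309). The list's median log2 fold change was -0.09, with 4 positive and 7 negative. Ebp, the isomerase that shifts a sterol double bond, had 26.0, 25.9 and 22.5 CPM in knockout libraries and 32.7, 34.4 and 32.2 CPM in control libraries. All knockout values lay below all control values (log2 fold change -0.42, SE 0.126, unadjusted p = 0.00577, edgeR adjusted p = 0.0667). Tm7sf2, a sterol reductase, had 4.20, 5.34 and 5.09 CPM in knockout libraries and 7.05, 7.58 and 7.32 CPM in control libraries. It had the lowest log2 fold change of the 29 members at -0.58 (SE 0.206, edgeR adjusted p = 0.116), again without overlap.

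Fdft1, the squalene synthase, had 77.6, 76.8 and 75.2 CPM in knockout libraries and 85.1, 81.6 and 78.1 CPM in control libraries. No library of one group lay within the range of the other (log2 fold change -0.09, edgeR adjusted p = 0.670). Sqle, the squalene epoxidase, had 194, 182 and 196 CPM in knockout libraries and 163, 155 and 219 CPM in control libraries. Control 3 was the highest and control 2 the lowest of the 6 libraries (log2 fold change 0.09, edgeR adjusted p = 0.776). Per kilobase of transcript, Sqle had the highest level of the 29 members, with 34.4 CPM per kilobase in knockout and 32.3 in control. Lss, Cyp51, Msmo1, Nsdhl, Hsd17b7, Sc5d and Dhcr7, which cyclise squalene epoxide, remove methyl groups and finish the ring, had overlapping groups and log2 fold changes from -0.18 to 0.45.

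Summed over the 18 enzymes, the level was 670.2, 667 and 683 CPM in knockout libraries and 709, 631 and 699 CPM in control libraries. Knockout averaged 673 ± 8.16 CPM and control 679.9 ± 42.5 CPM (SD, n = 3 each), so the knockout sums lay within the control range. The control spread had a direction by library: control 1 was the highest of the control libraries for 12 of the 18 enzymes (66.7%), and for 34.1% of all genes tested. Within the shallow pair, 6 of the 18 enzymes had a level above control in knockout, and within the deeper libraries 11 did. The part of depth or of control 1 in the enzymes' values was not tested.

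**Figure D3:**
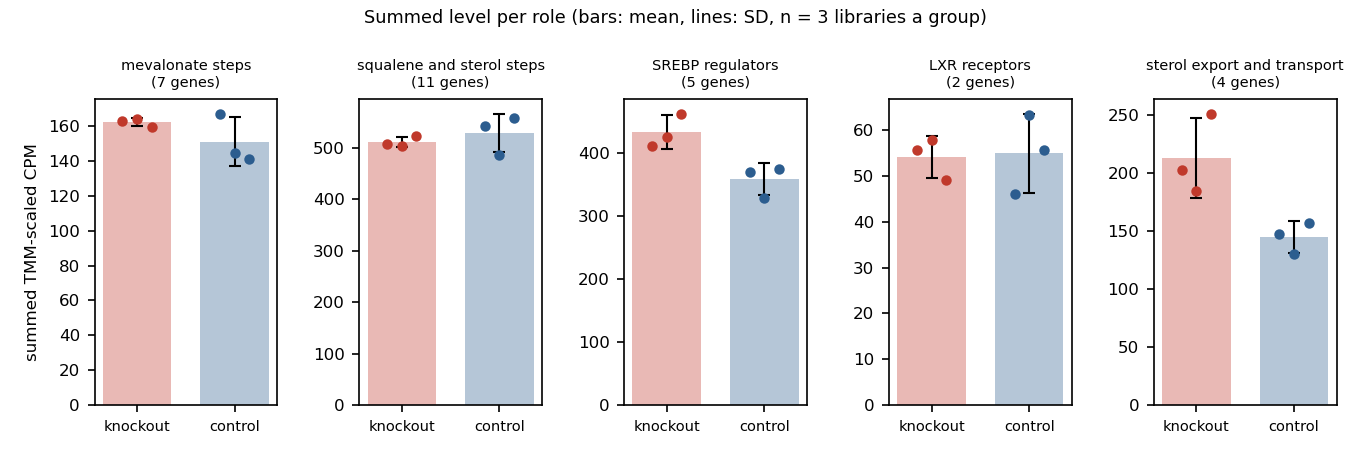
Summed level per role (y axes, TMM-scaled CPM, each from 0), with knockout left of control in each panel; bars are means, lines are SD and points are the 3 libraries of a group. The knockout points lie above the control points for the SREBP regulators and for sterol export and transport, and overlap them for the other roles.

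All 4 export and transport genes had positive log2 fold changes, with a median of 0.54, and 1 was called. Abcg1 (ENSMUSG00000024030), which passes sterol to lipoproteins and acts inside beta cells at the granules, had 103, 83.7 and 98.3 CPM in knockout libraries and 66.3, 67.4 and 74.6 CPM in control libraries. No knockout library fell within the control range. The means were 94.98 ± 10.02 CPM in knockout and 69.4 ± 4.48 CPM in control (SD, n = 3 each), a log2 fold change of 0.45 (SE 0.117), or 1.37-fold (edgeR adjusted p = 0.0363). The call was lost under 7 of the 16 alternatives: upper-quartile scaling (adjusted p = 0.0523), length and GC offsets (0.108), and the fits without control 1 (0.125), control 2 (0.153), knockout 1 (0.134), knockout 3 (0.0666) or both shallow libraries (0.272). The adjusted p ran from 0.0104 to 0.272 over the alternatives.

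Abca1, the exporter of cholesterol to lipid-poor apolipoprotein A-I, had 66.1, 69.5 and 114 CPM in knockout libraries and 51.8, 45.1 and 56.7 CPM in control libraries. Each knockout library lay above the control range, and knockout 3 stood well above the other 5 libraries. Its log2 fold change of 0.70 (SE 0.195) was the highest of the 29 members and missed the threshold (unadjusted p = 0.00424, edgeR adjusted p = 0.0552), and without knockout 3 it was 0.41 (0.0824). It passed in 8 of the 16 alternatives, with adjusted p from 1.34e-05 to 0.225.

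Npc1, which releases cholesterol from lysosomes, had 17.2, 18.1 and 21.9 CPM in knockout libraries and 13.8, 8.71 and 14.7 CPM in control libraries. The groups did not overlap, and control 2 was the lowest of the 6 (log2 fold change 0.63, SE 0.202, unadjusted p = 0.00879, edgeR adjusted p = 0.0835). It was called with no filter (0.0108), with the acinar covariate (0.0245) and by DESeq2 (0.0388). Stard4, a soluble sterol carrier, had 16.6, 13.0 and 16.9 CPM in knockout libraries and 15.9, 8.54 and 10.6 CPM in control libraries, with overlap (log2 fold change 0.43, SE 0.221, edgeR adjusted p = 0.288). Its log2 fold change was 0.69 without control 1 and 0.25 without control 2. Summed over the 4 genes, the level was 203, 184 and 251 CPM in knockout libraries and 148, 129.8 and 156.5 CPM in control libraries.

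Macrophages and endothelial cells also carry ABCA1 and ABCG1. The 9 macrophage and immune markers summed to 170.1, 112 and 90.0 CPM in knockout libraries and 108, 97.8 and 101 CPM in control libraries, with 7 of 9 log2 fold changes above 0, 0 called by edgeR and 1 at an unadjusted p under 0.05. The 5 endothelial markers summed to 200.2, 255 and 215 CPM in knockout libraries and 167, 187 and 167 CPM in control libraries. All 5 had log2 fold changes above 0, the sums did not overlap, and Cdh5 was called higher (edgeR adjusted p = 0.0481). No marker of either list was at 0 in all libraries. The part of these cells in the values of the export genes was not tested.

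The LXR receptors themselves showed no called change. Nr1h2, the widely expressed LXR beta, had 42.7, 46.1 and 37.0 CPM in knockout libraries and 34.3, 50.4 and 41.4 CPM in control libraries (log2 fold change -0.01, edgeR adjusted p = 0.984). Nr1h3, LXR alpha, had 12.9, 11.8 and 12.1 CPM in knockout libraries and 11.7, 12.9 and 14.2 CPM in control libraries (log2 fold change -0.08, edgeR adjusted p = 0.818). The groups overlapped for both, and these p-values do not show that the levels were equal.

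**Figure D4:**
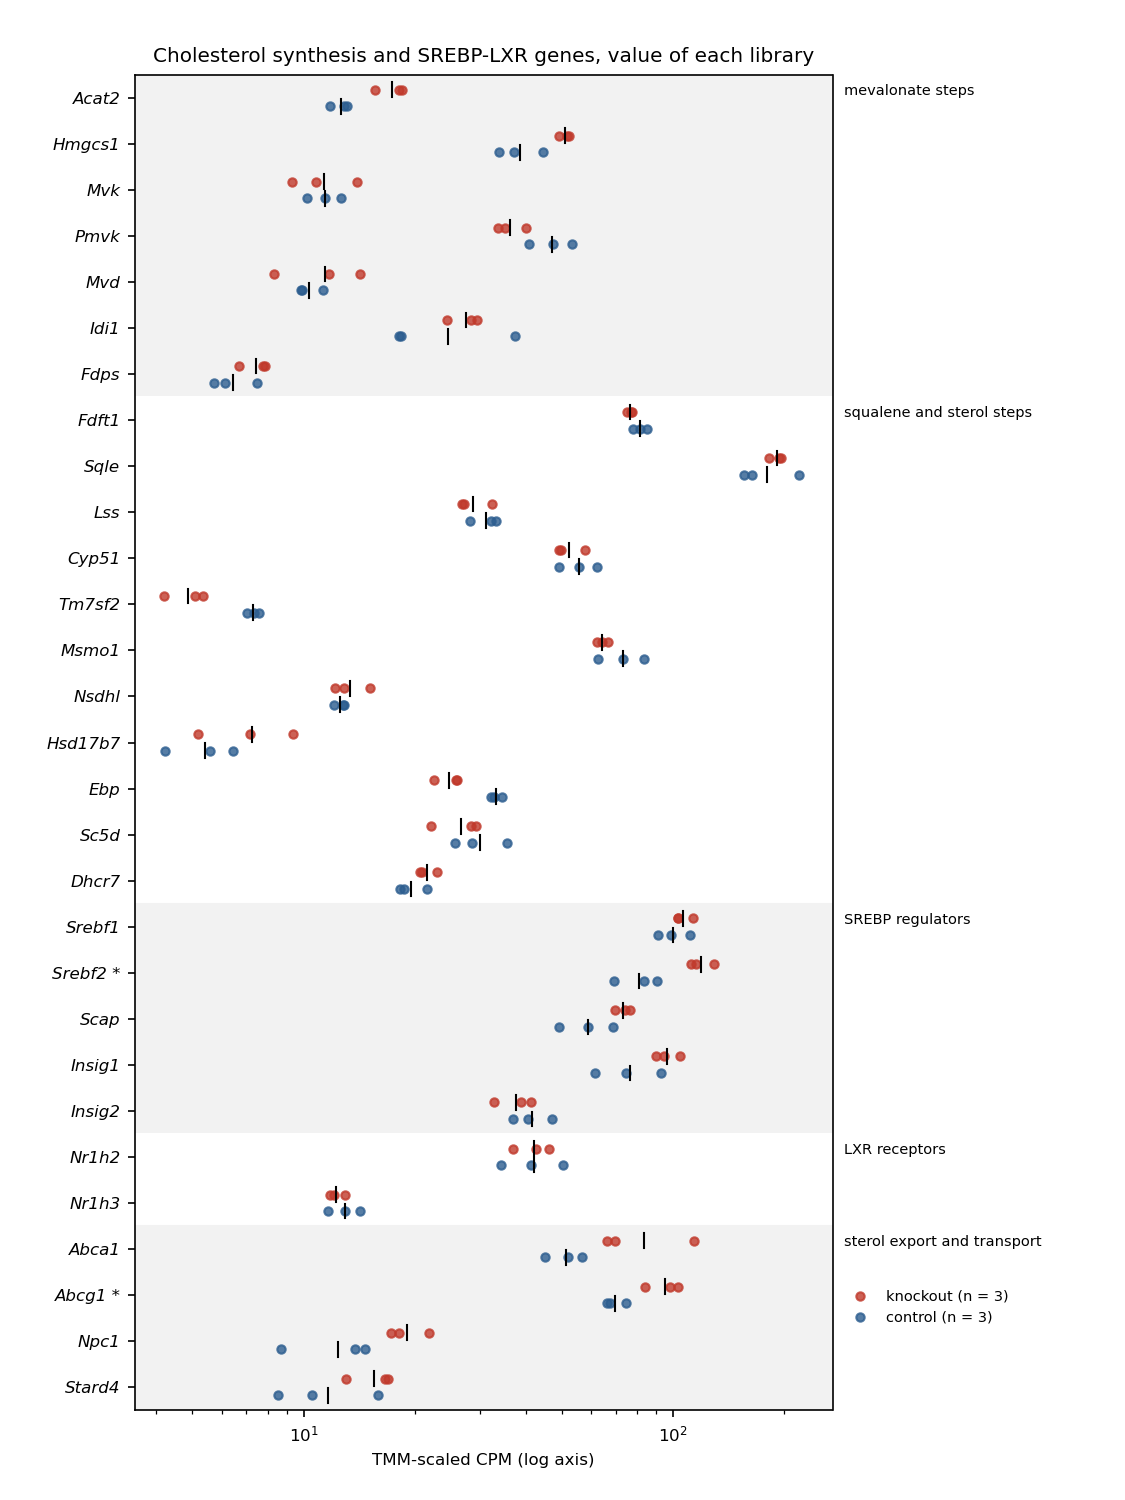
Level of each of the 29 members in every library (log axis, TMM-scaled CPM), with knockout above control for each gene, genes in pathway order, ticks at the means and an asterisk at called genes. Abca1 in knockout 3 stands apart from the other knockout libraries, and Idi1 in control 1 from the other control libraries.

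The members' median coefficient of variation was 9.48% in knockout and 12.4% in control, and over all genes tested it was 18.1% in knockout and 16.9% in control. Counting error is a larger share of low levels, and the genes tested were not matched to the members by level. The direction of some members differed between depths: within the shallow pair 15 of 29 members were higher in knockout, within the deeper libraries 20, and 18 had the same sign in both. For Srebf2 the log2 ratio was 0.36 in the shallow pair and 0.66 in the deeper libraries, and for Abcg1 0.63 and 0.36. In the annotation at hand, 11 members have an exon that overlaps another gene, so part of their counts could belong to the neighbour. They include Tm7sf2, which overlaps Vps51 on the same strand, and Hmgcs1, Npc1, Scap and Fdft1, which overlap genes on the opposite strand. Neither Srebf2 nor Abcg1 is among the 11, but Srebf1, whose counts enter the ratio with Srebf2, is. Its exons overlap Rai1 on the opposite strand and Mir6922 on the same strand.

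Beyond the members, 75 genes of the same pathways were read in 6 lists, and 71 of them were tested. Of the 71, 10 were called higher (14.1%) and 0 lower by edgeR, beside 3.72% higher over all genes. DESeq2 called 14 higher and limma-voom 10, and neither called any lower. Over all 18558 genes these called 1107 and 899 higher. The edgeR count was 4 without control 1, 4 without control 2, 5 without knockout 1 and 0 without both shallow libraries. Fewer were called higher over all genes too. In the same order these were 312 of 19429, 295 of 19268, 340 of 19549 and 76 of 19018, beside 691 of 18558 in the main fit. An unadjusted p under 0.05 was reached by 20 of the 71, and by 21.6% of all genes. The median log2 fold change of the 71 was 0.10, the same as for the members, with 45 positive and 26 negative.

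In the list of sterol uptake, storage and traffic, 3 of 16 were called higher (median 0.08). Soat1, which esterifies cholesterol for storage, had 49.9, 45.7 and 45.1 CPM in knockout libraries and 21.9, 23.0 and 29.2 CPM in control libraries. The groups lay far apart, at a log2 fold change of 0.92 (SE 0.138), or 1.89-fold, with an edgeR adjusted p of 0.00213. Scarb1, the scavenger receptor for high-density lipoprotein, had 36.2, 40.7 and 34.4 CPM in knockout libraries and 20.0, 25.3 and 23.8 CPM in control libraries (log2 fold change 0.68, SE 0.137, edgeR adjusted p = 0.0114). Neither gene had overlapping groups. Scarb1 was not called without control 1 (adjusted p = 0.0520).

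Among other LXR targets and partners, 3 of the 10 tested were called higher (median 0.28), beside 3.72% of all genes. Of the 10, 6 had positive log2 fold changes and 4 negative ones. The negative ones included Abcg4 (-0.54), Lpl (-0.21) and Mylip (-0.11), none of them called. Arl4c, a small GTPase gene that LXR switches on, had 13.4, 14.7 and 12.5 CPM in knockout libraries and 6.77, 7.27 and 6.98 CPM in control libraries (log2 fold change 0.95, SE 0.169, edgeR adjusted p = 0.00569). Smpdl3a, a phosphodiesterase gene that LXR switches on in human macrophages, had 37.2, 38.0 and 33.4 CPM in knockout libraries and 26.6, 27.0 and 23.1 CPM in control libraries (log2 fold change 0.50, SE 0.128, edgeR adjusted p = 0.0336). Rxra, the partner receptor of LXR, had 49.5, 49.1 and 57.5 CPM in knockout libraries and 36.7, 37.9 and 36.6 CPM in control libraries (log2 fold change 0.49, edgeR adjusted p = 0.0253). The groups did not overlap for any of these genes. Arl4c was called without each library in turn. Smpdl3a lost its call without any library other than knockout 3 (adjusted p = 0.0793 to 0.112) and with upper-quartile factors (0.0557), and Rxra without any other than knockout 2 (0.0553 to 0.0952).

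In the list of SREBP processing and sterol-regulated turnover, 2 of 13 were called higher (median 0.12). Mbtps1, the Golgi protease that makes the initial cut in the SREBPs, had 107, 96.1 and 115 CPM in knockout libraries and 77.6, 74.0 and 77.6 CPM in control libraries (log2 fold change 0.48, edgeR adjusted p = 0.0220). Erlin2, which takes part in sterol-regulated degradation at the endoplasmic reticulum, had 61.9, 55.9 and 72.8 CPM in knockout libraries and 43.5, 44.9 and 48.9 CPM in control libraries (log2 fold change 0.47, SE 0.126, edgeR adjusted p = 0.0402). Leaving out control 1, control 2, knockout 1 or knockout 3 ended either call, with adjusted p of 0.0523 to 0.1097 for Mbtps1 and 0.0948 to 0.154 for Erlin2. Length and GC offsets ended both calls too, at a log2 fold change of 0.34 (adjusted p = 0.0875) for Mbtps1 and 0.39 (0.0609) for Erlin2.

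Among 15 SREBP1 fatty acid genes, 1 was called higher (6.67%, beside 3.72% of all genes), with a median of 0.10. Lpin1, a phosphatidate phosphatase gene, had 34.4, 33.4 and 43.6 CPM in knockout libraries and 22.1, 16.1 and 19.5 CPM in control libraries (log2 fold change 0.96, SE 0.158, edgeR adjusted p = 0.00369). Acly, Acaca and Fasn, the enzymes that lead to palmitate, lay above control without overlap but were not called (edgeR adjusted p = 0.113, 0.0774 and 0.109). In this list 6 of 15 (40%) lay above control without overlap, against 14.0% of all genes. The same held for 5 of 13 processing and turnover genes, 4 of 16 uptake, storage and traffic genes and 4 of 10 LXR targets and partners. It held for 1 of 12 other sterol and isoprenoid genes and 0 of 5 oxysterol enzymes. Turning back to the 15 SREBP1 genes, the signs were mixed. Log2 fold changes were positive for 11 and negative for 4, among the latter Scd1 (-0.27) and Scd2 (-0.30). Of 12 other sterol and isoprenoid genes 1 was called higher (median -0.01), and of 5 oxysterol enzymes none was called by edgeR (1 at an unadjusted p under 0.05, median 0.14).

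**Figure D5:**
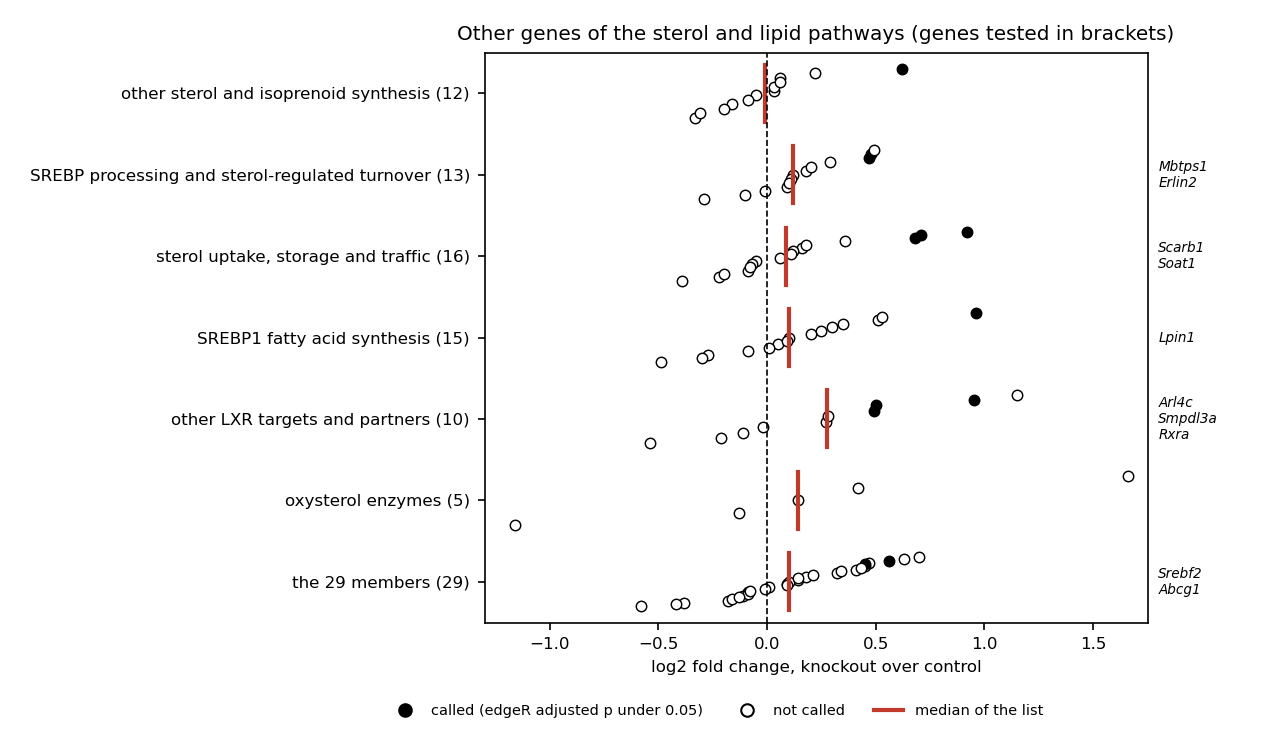
Log2 fold change, knockout over control (x axis), of each tested gene in the 6 lists of related genes and of the 29 members in the bottom row; filled points are called, red lines are medians, and called genes described in the text are named at right. Every called point lies above 0.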

How the data were processed

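The data were gene counts from 6 islet RNA libraries, 3 knockout and 3 control. Per the submitters' processing notes, the tools named are Trim Galore (0.6.7), FastQC (0.11.9), STAR (2.7.3a) and featureCounts, with the build GRCm39 (mm39). The sources used here do not give the annotation release, the strand setting, or how pairs and multi-mapping reads were handled. The authors deposited whole-number counts, not normalized, for 56980 Ensembl IDs. Between 62.3% and 73.2% of the nonzero counts of a library were even, so a count may stand for 1 read of a pair rather than a fragment. Column names gave the group of each library but not its sample. Symbols were matched by gene ID (GENCODE M21) for 52073 IDs. Libraries of the same group correlated at 0.946 to 0.977 (Pearson r of log2 CPM across genes, which are not independent), and none agreed within sampling noise.

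Genes were filtered with filterByExpr and tested in R 4.3.3 with edgeR 4.0.16 (TMM factors, robust quasi-likelihood test, knockout against control, no covariate), adjusted over the 18558 genes tested. Alternatives used DESeq2 1.42.0, limma 3.58.1 (voom), other scalings, filters and covariates, and left out libraries. Floors cover counting error only. The 29 members and the lists were chosen with earlier results of these data known. Per-library values are given for called members, the 7 regulators and the 4 uncalled members with the smallest p, and of each related list up to 4 called genes are named; values per library of other genes were chosen with their results seen. A few genes taken by this rule are not reported here.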

Additional observations from a re-analysis of the deposited data

How the results depend on the processing

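Over all genes, 1312 were called (691 higher, 621 lower). Without a filter the counts were 2153 called and 1222 higher, with DESeq2 2094 called, 1107 higher and 987 lower, with the summed log2 CPM of acinar markers as a covariate 2093, 1111 and 982, and without both shallow libraries 124, 76 and 48. Leaving out 1 library gave 519 to 1309 called, 295 to 719 higher and 224 to 590 lower, the lowest without control 2. Upper-quartile factors moved the median log2 fold change of all genes by -0.05 and gave 613 higher and 829 lower. Over members, 2 were called (2 higher, 0 lower). Without a filter 5 were called, all higher, with DESeq2 7 (6 higher, 1 lower), with limma-voom 6 (4 higher, 2 lower), with the acinar covariate 6 (5 higher, 1 lower) and without both shallow libraries 0. Upper-quartile factors called 1 member lower. Leaving out 1 library gave 0 to 3 called, all higher. In the related lists 10 were called, all higher; leaving out 1 library gave 4 to 8 called and 4 to 8 higher, leaving out both shallow libraries 0, and the acinar covariate added 1 lower. TCACNCCAC stood in 1 member and its longer consensus form in 0.

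Log2 fold changes near 0 changed sign under some alternatives, none of these genes being called. Mvk had -0.04 with upper-quartile factors, 0.00 with a filter of 1 CPM, -0.01 with the acinar covariate and -0.17 to 0.13 when 1 library was left out. With 1 library left out, Mvd ranged from -0.04 to 0.32 and Sqle from 0.00 to 0.27. Without both shallow libraries Cyp51 had 0.03, Sc5d 0.09 and Insig2 0.05. Nr1h2 had 0.00 with DESeq2 size factors, with no filter and with DESeq2, 0.01 with length and GC offsets, and -0.13 to 0.15 with 1 library left out. Nr1h3 had 0.00 with length and GC offsets. The causes were not tested. Of the member and alternative pairs, 414 kept direction and side of the threshold, 23 gained the call, 10 lost it and 17 changed sign. No paired analysis was possible because the columns carry no number that the labels tie to a sample. Depth limits the shallow libraries most, where 3 counts correspond to up to 0.194 CPM.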
